A study of Mus musculus with 8 samples.

Results

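*Vnn1* and *Vnn3* are the vanin genes examined here, 2 of the 54658 gene symbols in the count table. They were taken by name and chosen by the rise of *Vnn3* after IL-1β in these same samples, so their own differences between the groups are given as a description, with no test. Vanins are ectoenzymes that cut pantetheine, a breakdown product of coenzyme A, into pantothenate (vitamin B5) and the aminothiol cysteamine. Pantothenate can be taken up and built into coenzyme A again, and cysteamine can be oxidized to hypotaurine and taurine. Vanin-1 is anchored to the outer cell membrane by glycosylphosphatidylinositol (GPI), and its gene is known in liver as a target of the fatty acid receptor PPARα.

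RNA-Seq was performed on primary articular chondrocytes that were digested from the femoral head cartilage of wild-type mice aged 3 weeks. In 4 samples the cells received IL-1β at 1 ng/mL for 24 h, and in 4 they received vehicle. Both groups were grown in high-glucose medium with 10% fetal bovine serum. The labels do not say whether replicates came from separate animals, so p-values measure the spread between these samples, which may be technical. Total counts were 10992355 to 17104351 per IL-1β sample and 13970959 to 17456063 per vehicle sample. At these totals, 3 counts, taken as the smallest number that can be told from 0, correspond to 0.173 to 0.270 CPM (counts per 1000000, scaled by TMM).

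The labelled cell type was checked against its markers. The 7 chondrocyte genes *Col2a1*, *Acan*, *Sox9*, *Comp*, *Col9a1*, *Matn3* and *Hapln1* summed to 14200 to 14750 CPM with vehicle and 3571 to 3939 CPM with IL-1β. All 7 were lower with IL-1β. Markers are called higher or lower here at an adjusted p under 0.05 from edgeR, whatever the fold change. By this rule 20.4% of all genes tested were higher and 19.8% lower. In bulk samples, fewer cells of a type and less RNA per cell cannot be told apart. Vanins are also known from blood cells and epithelia, so the markers of such cells were counted too. Of 9 neutrophil markers, 8 (*S100a8*, *S100a9*, *Ly6g*, *Mpo*, *Elane*, *Csf3r*, *Ltf* and *Cxcr2*) had at most 3 reads in every sample. The exception was *Camp*, at 1.26 ± 0.195 CPM in the IL-1β group and 0.143 ± 0.142 CPM in the vehicle group (SD, n = 4). It was called higher (log2 fold change 3.10), but it had at most 5 reads in any vehicle sample. *Camp* was tested only because its IL-1β samples passed 1 CPM, so little is read from this call. The summed level of the 9 was 1.30 to 1.54 CPM with IL-1β and 0 to 0.526 CPM with vehicle. Of 8 macrophage and monocyte markers, *Adgre1*, *Ly6c2* and *Itgam* had at most 3 reads in every sample, while *Cd14* and *Cd68* were higher and *Lyz2* lower with IL-1β, the last at an adjusted p of 0.0364 from edgeR that lost the call in 8 of 14 alternatives. The 8 summed to 29.9 to 33.5 CPM with IL-1β and 14.8 to 16.9 CPM with vehicle, most of it from *Cd14* and *Cd68*. The 5 epithelial markers summed to 1.53 to 2.79 and 1.85 to 3.35 CPM, and the 5 endothelial markers to 1.06 to 1.66 and 0.865 to 1.71 CPM, with IL-1β and vehicle respectively. The part of such cells in the vanin values was not tested. With vehicle, each of these sums for other cell types lay below the level of *Vnn1*, but the macrophage, epithelial and endothelial sums lay above that of *Vnn3*, which ran from 0.519 to 0.723 CPM.

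Both vanin genes lie side by side on chromosome 10 and are read from the plus strand (GRCm38, GENCODE vM21). *Vnn3* (ENSMUSG00000020010.7) spans 23851462 to 23869843 and *Vnn1* (ENSMUSG00000037440.8) spans 23894688 to 23905343, with 24844 bases between them. The main transcript of each has 7 exons, of 1811 spliced bases for *Vnn3* and 2416 for *Vnn1*, and no other annotated gene overlaps either of them. Since relatives of this kind could share reads, their sequences were compared. The coding sequences, 1500 bases for *Vnn3* and 1536 for *Vnn1*, were identical at 67.4% of 1474 aligned bases, and the longest run of identical bases was 12. None of the 1762 windows of 50 bases in the *Vnn3* transcript, and none of the 2367 in the *Vnn1* transcript, occurred in a transcript of any other gene. The aligned coding stretch around the longest identical run is shown because it holds that run. It is exonic in both genes, at chr10:23864562-23864597 for *Vnn3* and chr10:23899618-23899653 for *Vnn1*, on the plus strand, and capitals mark the 26 of 36 bases that the pair has in common (GENCODE vM21 transcripts):

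Vnn3: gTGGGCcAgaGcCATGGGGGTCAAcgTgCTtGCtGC

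Vnn1: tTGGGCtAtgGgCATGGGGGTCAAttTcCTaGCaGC

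In this stretch the pair differed at 10 of 36 bases, and other stretches were not ranked by likeness. An exact match of 50 bases told either gene from the other.

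The 250 bases before the *Vnn3* start, an intergenic stretch after *Slc18b1*, are shown because *Vnn3* started from near the smallest measurable level (RefSeq, GRCm38.p6, chr10:23851212-23851461, plus strand). Capitals mark the single match found for the motifs searched, on both strands:

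Vnn3 upstream: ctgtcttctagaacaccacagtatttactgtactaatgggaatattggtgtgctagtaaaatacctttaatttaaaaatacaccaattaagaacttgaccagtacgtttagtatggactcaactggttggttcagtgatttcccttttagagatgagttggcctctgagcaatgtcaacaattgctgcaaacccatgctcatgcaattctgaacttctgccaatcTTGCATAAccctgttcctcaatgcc

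The match is TTGCATAA, at positions -25 to -18 before the start, which fits the C/EBP motif TTGCNNAA. C/EBP factors act in many acute phase genes. Of 32851 upstream windows of this length, 9.56% held the C/EBP motif. The AP-1 motif TGANTCA (6.75% of windows), the STAT motif TTCNNNGAA (7.02%), the PPAR response element (0.338%) and the κB consensus of NF-κB (5.0%) had no match in the window, so no matches of different motifs overlapped there. Such a match describes letters only, and sites outside these 250 bases were not searched.

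*Vnn3*, which encodes vanin-3, was near the smallest measurable level with vehicle and abundant with IL-1β. The vehicle samples held 9, 10, 10 and 11 reads in replicates 1 to 4, and the IL-1β samples held 3099, 3561, 4274 and 3755 reads. In TMM-scaled CPM, the vehicle samples had 0.519, 0.578, 0.713 and 0.723, and the IL-1β samples had 279, 257, 254 and 266. The lowest IL-1β sample was 351-fold above the highest vehicle sample, and the groups did not overlap.

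The IL-1β group averaged 264 ± 11.4 CPM and the vehicle group 0.633 ± 0.101 CPM (SD, n = 4 each). The log2 fold change was 8.70, which is 416-fold. The standard error of this log2 fold change was 0.196 in the edgeR fit and 0.228 from counting error alone, and the vehicle side rests on 40 vehicle reads in all (exact 95% Poisson interval 28.6 to 54.5, for counting error only). No vehicle sample reached 1 CPM, so *Vnn3* passed the filter on low counts through its IL-1β samples alone. Per length, in TPM (transcripts per 1000000), *Vnn3* stood at 0.976 ± 0.139 with vehicle and 395 ± 26.7 with IL-1β (SD, n = 4). By level in TPM it moved from rank 13646 to rank 229 among the 14404 genes tested.

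*Vnn1*, which encodes vanin-1, was already well expressed with vehicle and was also higher with IL-1β. The vehicle samples had 1035, 1020, 903 and 937 reads in replicates 1 to 4, and the IL-1β samples had 7717, 9790, 11499 and 10034. In TMM-scaled CPM, these were 59.7, 58.9, 64.4 and 61.6 with vehicle and 695, 706, 683 and 712 with IL-1β. The groups did not overlap, and the lowest IL-1β value was 10.6-fold the highest vehicle value.

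*Vnn1* averaged 699 ± 12.6 CPM in the IL-1β group and 61.2 ± 2.43 CPM in the vehicle group (SD, n = 4 each). Its log2 fold change was 3.52 (standard error 0.0349), or 11.4-fold. The samples of a group lay close together, with a coefficient of variation of 1.80% with IL-1β and 3.97% with vehicle. Per length, *Vnn1* stood at 70.8 ± 3.17 TPM with vehicle (rank 1649 of 14404) and 784 ± 27.7 TPM with IL-1β (rank 117).

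**Figure D1:**
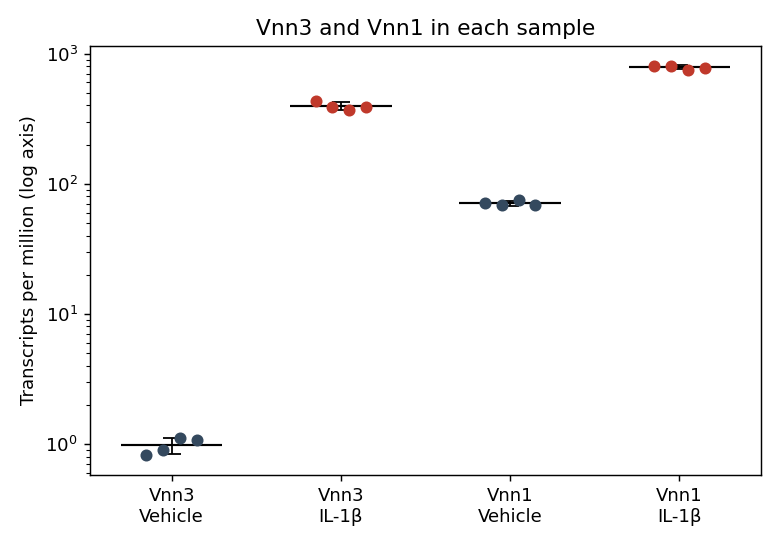
Level of *Vnn3* and *Vnn1* in each of the 8 samples, in TPM on a log axis. Points are samples, lines are means and bars are 1 SD (n = 4). The IL-1β samples of *Vnn3* sit near 395 and the vehicle samples near 1, and *Vnn1* moves from near 70.8 to near 784.

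Differentially expressed genes (DEGs) were those past a log2 fold change of 1, up or down, at an adjusted p-value under 0.05 (edgeR's quasi-likelihood test, Benjamini-Hochberg over 14404 genes). By this rule 2.86% of the genes tested were higher and 2.35% lower with IL-1β, and both vanins fell among the higher, from which nothing is read since they were chosen on this contrast. In 36.8% of the genes tested, as in both vanins, the groups of 4 did not overlap. By log2 fold change *Vnn3* ranked 3 of 14404, behind *Saa3* and *Cxcl5*, and *Vnn1* ranked 40. The fitted fold change of *Cxcl5* rests on at most 3 reads per vehicle sample, so its place ahead of *Vnn3* depends on the fit. Among the 1649 genes with a vehicle TPM at least that of *Vnn1*, *Vnn1* ranked 3 by log2 fold change. By difference in TPM the order of the pair was the other way round, since *Vnn1* gained 713 TPM (rank 12 of 14404) and *Vnn3* gained 394 TPM (rank 25).

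**Figure D2:**
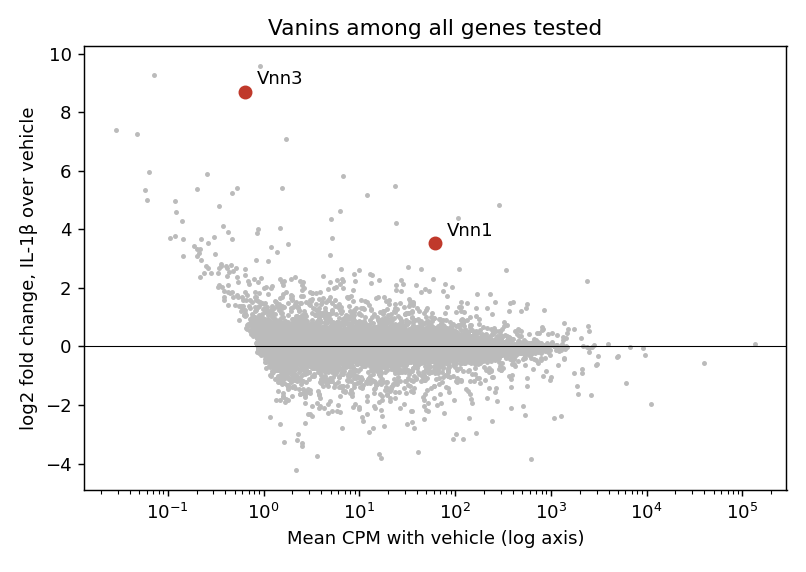
Each of the 14404 genes tested by its mean CPM with vehicle (log axis) and its log2 fold change, IL-1β over vehicle. *Vnn3* lies at 8.70 with a vehicle level of 0.633 CPM, and *Vnn1* at 3.52 with 61.2 CPM.

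The balance within the pair shifted towards *Vnn3*. With vehicle, *Vnn1* exceeded *Vnn3* per length by 86.2, 76.5, 67.7 and 63.9-fold in replicates 1 to 4, and with IL-1β by 1.87, 2.06, 2.02 and 2.00-fold. *Vnn1* thus remained the more abundant transcript in all 8 samples. As a share of the TPM of both genes, *Vnn3* made up 1.36 ± 0.176% with vehicle and 33.5 ± 0.958% with IL-1β (SD, n = 4). The summed vanin level was 71.8 ± 3.24 TPM with vehicle and 1180 ± 51.6 TPM with IL-1β (SD, n = 4). The log2 fold change of *Vnn3* exceeded that of *Vnn1* by 5.18. These ratios use both genes of the same library, so a library's total does not enter them.

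**Figure D3:**
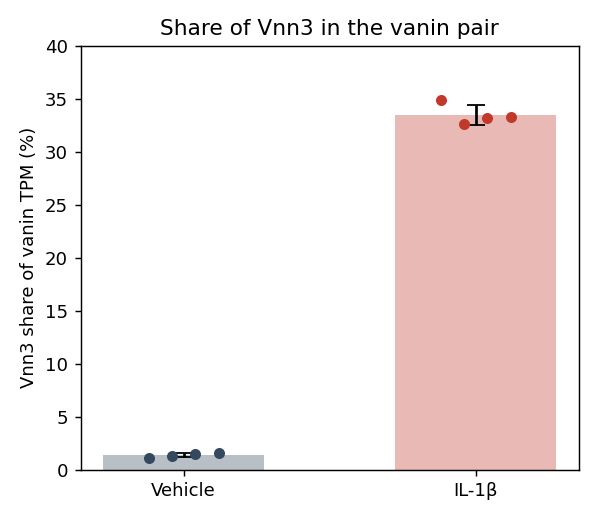
Share of *Vnn3* in the summed TPM of *Vnn1* and *Vnn3*, in percent. Bars are means from 0, error bars are 1 SD and points are samples (n = 4 per group). The vehicle samples lie between 1.15 and 1.54%, and the IL-1β samples between 32.7 and 34.9%.

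Of the 3 nearest protein-coding genes on each side, 3 could be tested. None was a DEG higher with IL-1β, against 2.86% of all genes tested. *Eya4* was a DEG lower, against 2.35% of all genes tested. With 3 genes, nothing about the region is read from these calls. *Slc18b1*, a vesicular polyamine transporter gene that ends 23493 bases before *Vnn3*, was at 21.1 ± 1.2 CPM in the IL-1β and 17.2 ± 1.64 CPM in the vehicle group (SD, n = 4 each), with a log2 fold change of 0.29 (adjusted p = 0.00187 from edgeR). *Rps12*, a ribosomal protein gene 64186 bases before the pair, had 1091 ± 23.8 and 1075 ± 24.5 CPM (log2 fold change 0.02, adjusted p = 0.612 from edgeR). *Eya4*, a transcriptional coactivator gene 500675 bases before the pair, fell from 8.35 ± 0.446 to 2.77 ± 0.295 CPM (log2 fold change -1.58, adjusted p = 2.03e-11 from edgeR). On the other side, the trace amine receptor genes *Taar2* and *Taar3* had 0 reads in all 8 samples, and *Taar1*, 15012 bases after *Vnn1*, did not pass the filter, at 0.1 ± 0.0997 CPM with IL-1β and 0 reads with vehicle.

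The genes most like each vanin were named by the root mean square difference of log2(CPM + 1), centred on each gene's mean, over the 8 samples. For *Vnn3* these were *Hp* (0.470), *Saa3* (0.647), *Cxcl5* (0.845), *Steap4* (0.863) and *Mmp3* (0.964). *Hp* encodes the haemoglobin-binding acute phase protein haptoglobin and averaged 238 ± 10.6 CPM in the IL-1β and 1.71 ± 0.431 CPM in the vehicle group (SD, n = 4 each). *Saa3* encodes a serum amyloid A protein and had 721 ± 51.7 and 0.915 ± 0.338 CPM. *Steap4* encodes a metalloreductase and had 380.5 ± 3.59 and 6.73 ± 0.41 CPM. *Mmp3*, a matrix metalloproteinase gene, had 1055 ± 68.9 and 23.6 ± 1.47 CPM. For *Vnn1* they were *Cxcl2* (0.120), *Ccl20* (0.142), *Il13ra2* (0.165), *Slpi* (0.169) and *Saa2* (0.182). *Cxcl2*, a neutrophil-attracting chemokine, averaged 66.9 ± 6.77 and 5.16 ± 0.535 CPM, whereas *Ccl20*, *Il13ra2* and *Saa2* had at most 9 reads in any vehicle sample, where the added 1 CPM compresses the profile. This distance asks for a change of the same size in log2(CPM + 1), not for the same fold change. The added 1 CPM also compresses the profile of *Vnn3*, which averaged 0.633 CPM with vehicle. By this distance the vanins lay 1.93 apart, and the rank of that difference depended on which of the pair it was taken from. *Vnn1* ranked 16 in likeness to *Vnn3*, and *Vnn3* ranked 13239 in likeness to *Vnn1*. By Pearson's r in place of the distance, none of these 10 genes was among the 5 nearest, and *Vnn1* and *Vnn3* were each other's nearest gene of 14404 (r = 0.9999 over 8 samples). With r, 319 genes lay above 0.99 for *Vnn3* and 318 for *Vnn1*, since the 8 points share 2 groups and any large and even change gives a high r.

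The genes around the vanin reaction were read next, from lists of the steps before and after it. Calls in these lists are at an adjusted p-value under 0.05 whatever the fold change, by which 20.4% of all genes tested were higher and 19.8% lower with IL-1β. The median log2 fold change of all genes tested was -0.001. Among 4 relatives of the vanins, *Btd*, which encodes biotinidase and releases the vitamin biotin, was higher at 32.8 ± 0.99 against 27.9 ± 1.89 CPM (SD, n = 4, log2 fold change 0.24, adjusted p = 0.000894 from edgeR). The amidase genes *Nit1* and *Nit2* had log2 fold changes of 0.14 and 0.05 (adjusted p = 0.0556 and 0.77 from edgeR). *Upb1*, which encodes β-ureidopropionase, was lower, at 3.10 ± 0.349 against 4.11 ± 0.704 CPM (adjusted p = 0.0477 from edgeR), with overlapping groups and an adjusted p of 0.028 to 0.193 over 15 alternatives, 9 of which lost the call. None of these 4 relatives was a DEG.

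The steps that make pantetheine from coenzyme A come before the vanins. Of 7 pyrophosphatase and phosphatase genes listed around them, 5 passed the filter on low counts, with 1 higher and 2 lower. The median log2 fold change of 0.10 is the value of *Acp6*, a phosphatase gene whose part in these steps was not tested. *Alpl*, the tissue-nonspecific alkaline phosphatase, fell from 40.8 ± 0.911 to 25.9 ± 1.24 CPM (SD, n = 4, log2 fold change -0.65, adjusted p = 9.48e-12 from edgeR). *Enpp1*, an ectonucleotide pyrophosphatase that can cut coenzyme A outside the cell, averaged 65 ± 1.86 CPM against 70.3 ± 2.56 CPM with vehicle (log2 fold change -0.11, adjusted p = 0.0253 from edgeR, and 0.0102 to 0.0991 over 15 alternatives, 5 of which lost the call). *Nudt7*, a peroxisomal coenzyme A hydrolase, had 5.74 ± 0.894 and 4.45 ± 0.667 CPM (log2 fold change 0.37, adjusted p = 0.0316 from edgeR, and 0.0111 to 0.165 over 15 alternatives, 6 of which lost the call). *Nudt19* and *Acp6* did not pass the test, and *Enpp3* and *Nudt8* did not pass the filter, with at most 0.446 CPM in either group's mean.

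The steps that use pantothenate come after the vanins. Of the 8 genes listed for them, with *Pank4* listed only as a relative of the kinases, 7 did not pass the test (median log2 fold change -0.01). These were the vitamin transporter gene *Slc5a6*, the pantothenate kinases *Pank1*, *Pank2* and *Pank3*, which catalyse the rate-limiting step, their relative *Pank4*, and *Ppcs* and *Ppcdc*. Their log2 fold changes ran from -0.22 for *Slc5a6* to 0.07 for *Ppcdc*. *Pank3*, for example, was at 60.4 ± 4.29 CPM in the IL-1β and 59.2 ± 4.67 CPM in the vehicle group (SD, n = 4 each). The one gene called was *Coasy*, the bifunctional synthase of the last steps, at 33.9 ± 1.58 against 27.9 ± 1.48 CPM (log2 fold change 0.28, adjusted p = 9.36e-05 from edgeR). Of the genes for the proteins that carry the phosphopantetheine arm and the transferase that attaches it, 5 of 6 passed the filter, and 4 of the 5 were lower (median log2 fold change -0.20). They were *Aldh1l2*, a mitochondrial formyltetrahydrofolate dehydrogenase, at 170.3 ± 3.74 against 239 ± 3.40 CPM (log2 fold change -0.49, adjusted p = 8.03e-14 from edgeR), *Fasn*, the fatty acid synthase, at 190.2 ± 5.49 against 218 ± 5.42 CPM, *Aasdhppt*, the transferase, and *Ndufab1*, the mitochondrial acyl carrier protein. No tested gene of these 3 lists reached a log2 fold change of 1 in size.

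Cysteamine, the other product, is oxidized by the dioxygenase of *Ado*, which averaged 45.6 ± 5.12 CPM against 48.5 ± 1.96 CPM with vehicle (SD, n = 4 each, log2 fold change -0.09, adjusted p = 0.247 from edgeR, but lower at 0.0486 without IL-1β replicate 4). Of 7 genes listed for cysteamine and taurine, 4 passed the filter, with 2 higher and a median log2 fold change of 0.12. *Slc6a6*, the taurine transporter, rose to 112 ± 5.18 from 89.6 ± 4.68 CPM (log2 fold change 0.32, adjusted p = 1.96e-07 from edgeR). *Cdo1*, the cysteine dioxygenase, had 2.52 ± 0.452 and 1.71 ± 0.285 CPM (log2 fold change 0.57, adjusted p = 0.0225 from edgeR, and 0.0137 to 0.0913 over 15 alternatives, 4 of which lost the call). *Csad*, which makes hypotaurine from cysteine sulfinate, did not pass the test (log2 fold change -0.08, adjusted p = 0.407 from edgeR). *Gadl1*, *Fmo1* and *Slc6a13* had at most 3 reads in every sample.

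Glutathione, the main thiol of the cell, was read beside cysteamine, and 4 of 6 genes of its making, recycling and breakdown were higher and 1 lower (median log2 fold change 0.41). *Slc7a11*, the cystine importer, rose to 128 ± 10.5 from 51.2 ± 1.61 CPM (SD, n = 4, log2 fold change 1.31, adjusted p = 1.58e-19 from edgeR) and was the DEG of the list. *Gclc* and *Gclm*, the subunits of glutamate-cysteine ligase, had log2 fold changes of 0.43 and 0.40, and *Gsr*, glutathione reductase, one of 0.55. *Chac1*, which degrades glutathione, was lower (log2 fold change -0.13, adjusted p = 0.00567 from edgeR), and *Gss* had 43.8 ± 1.62 and 40.8 ± 1.16 CPM (adjusted p = 0.0684 from edgeR).

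**Figure D4:**
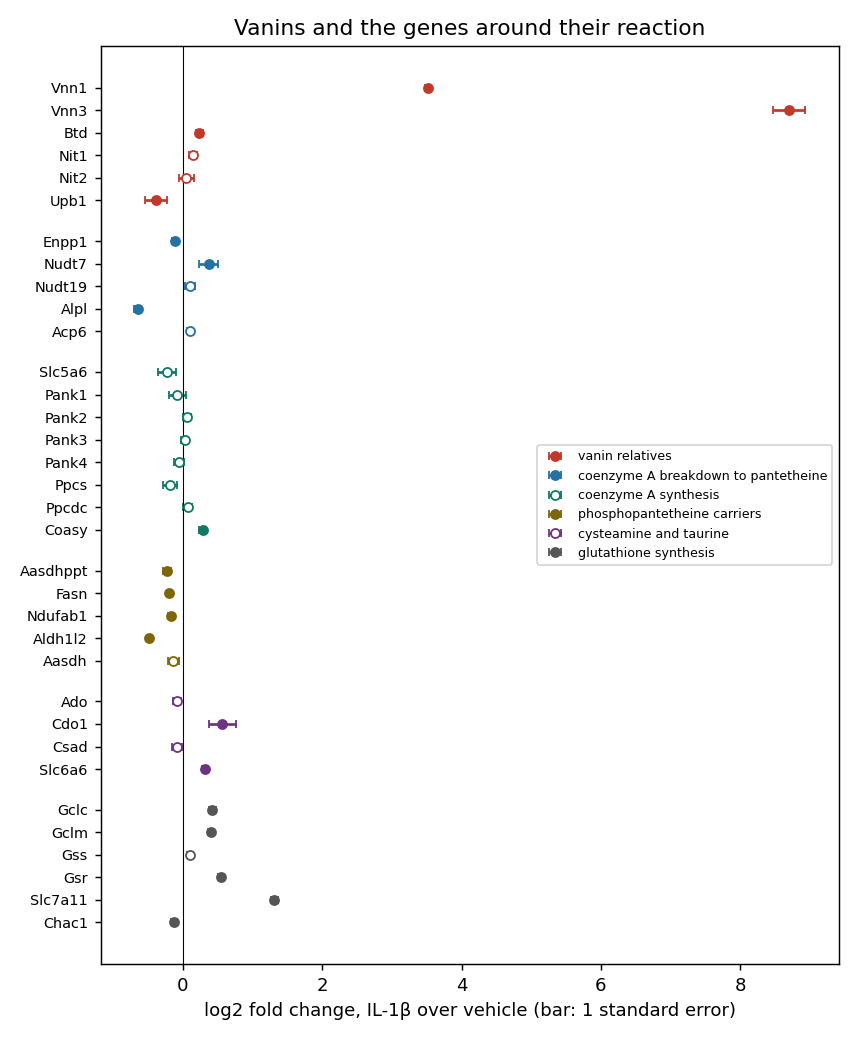
Log2 fold change, IL-1β over vehicle, of the vanins and of the tested genes of 6 lists around their reaction. Bars are 1 standard error (the larger of the fitted and the counting error), and filled points passed an adjusted p of 0.05 or are the vanins. The vanins stand at 8.70 and 3.52, and of the others only *Slc7a11*, at 1.31, lies beyond 1.

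PPAR factors and their known targets were listed because *Vnn1* is one of those targets in liver. Of 14 genes listed, 9 passed the filter, with 6 higher, 2 lower and a median log2 fold change of 0.50. *Ppara* itself did not pass, at 0.79 ± 0.203 CPM in the IL-1β and 0.636 ± 0.126 CPM in the vehicle group (SD, n = 4 each). *Pparg*, the adipogenic receptor, fell from 8.97 ± 0.869 to 2.23 ± 0.346 CPM (log2 fold change -1.98, adjusted p = 9.34e-13 from edgeR), while *Ppard* rose from 43.8 ± 0.893 to 66.8 ± 5.06 CPM (log2 fold change 0.61, adjusted p = 1.11e-11 from edgeR). Among the targets, *Angptl4*, an inhibitor of lipoprotein lipase, rose to 229.6 ± 6.47 from 102 ± 3.29 CPM (log2 fold change 1.17) and *Plin2*, a lipid droplet coat protein, to 38.6 ± 1.13 from 17.7 ± 0.427 CPM (log2 fold change 1.12), both as DEGs. *Pdk4* and *Cpt1a*, genes of fatty acid use, had log2 fold changes of 0.91 and 0.50 (adjusted p = 9.04e-05 and 1.99e-07 from edgeR). The partner receptor *Rxra* was lower (log2 fold change -0.16, adjusted p = 0.00121 from edgeR). *Cd36* had at most 3 reads in every sample.

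Of the 7 genes that attach, trim or release GPI anchors, 5 did not pass the test (median log2 fold change -0.03). *Pigk*, the catalytic subunit of the transamidase that attaches the anchor, averaged 55.6 ± 1.69 CPM against 61.6 ± 1.64 CPM with vehicle (SD, n = 4 each, log2 fold change -0.15, adjusted p = 0.00465 from edgeR). *Pigu*, another subunit, had 48.8 ± 1.41 and 41.1 ± 2.55 CPM (log2 fold change 0.25, adjusted p = 7.8e-05 from edgeR). *Gpld1*, a phospholipase that can release GPI-anchored proteins, had 1.10 ± 0.65 and 1.11 ± 0.392 CPM (adjusted p = 0.984 from edgeR).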

How the data were processed

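RNA-Seq counts of 8 samples, 4 with IL-1β and 4 with vehicle, were analysed. The authors trimmed reads with cutadapt, aligned them with STAR to mm10 with GENCODE vM20 and made the counts with featureCounts. The deposited table holds whole numbers of reads per gene symbol (counts), with gene lengths in bases (unit: other) beside them. The deposited file does not say whether these counts were taken before or after the RUVseq step of the methods. The submitters' processing notes list STAR 2.4.2a.

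Here, genes that passed 1 CPM in 4 or more samples (14404 genes) were tested with edgeR 4.0.16 in R 4.3.3 (limma 3.58.1), with TMM factors and treatment as the only term. CPM uses the total count of all genes times the TMM factor. TPM was computed from the counts and the deposited lengths. Standard errors of log2 fold changes are Wald errors at the fitted means. On simulated counts of 14216 genes for this comparison, the DEG rule recovered 99.5% of 200 genes changed by a log2 of 2, with 0 false calls. The list calls, which set no limit on fold change, were not checked in this way. Positions came from GENCODE vM21 (54000 symbols matched 1 gene) and the upstream sequence from RefSeq. Other values used Python 3.11.15, pandas 2.3.3, numpy 2.4.6 and scipy 1.17.1, and figures matplotlib 3.10.9.

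The members and gene lists were chosen with earlier results of these data known. Named genes are the vanins, the 5 genes most like each, the 3 protein-coding neighbours per side, and list members by the rule that DEGs and the enzymes and transporters of the coenzyme A and cysteamine lists get values. Genes named beyond these were chosen after their values were seen. Single values of some members of the PPAR list are not reported here. The alternatives were DESeq2 1.42.0, its size factors, total library size, other filters, a replicate block, 1 factor of unwanted variation (RUVs), and each sample left out in turn, when the CPM had to exceed 1 in 3 samples. Intervals and smallest measurable levels cover counting error only.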

Additional observations from a re-analysis of the deposited data

Results flagged for a closer look

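In 2 of 130 groups of 4 values compared (the tested genes of the lists other than cell markers, the tested neighbours, the 10 genes most like the vanins, the ratio of *Vnn1* to *Vnn3* and the total counts), 1 sample lay further from the other 3 than Dixon's 95% critical value of 0.829 allows. Chance alone gives about 1 in 20, or 6.5 groups here. For *Nudt7*, IL-1β replicate 2 was high at 7.07 CPM, and the rest of its group ran from 5.18 to 5.50 CPM. For *Ppard*, vehicle replicate 4 was low at 42.5 CPM, and the rest of its group ran from 44.1 to 44.4 CPM. Neither vanin had such a sample in either group.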

How the results depend on the processing

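The log2 fold changes of both vanins moved by less than 1 SD of their replicates in every alternative that gave one. With each sample left out in turn, *Vnn3* lay between 8.61 and 8.77 and *Vnn1* between 3.50 and 3.54. With a CPM above 1 required in all 8 samples, *Vnn3* was not tested. The number of DEGs was 751, against 511 with that filter in all 8 samples and 1206 without a filter on low counts. It was 788 to 815 with single samples left out, where more genes are tested. With DESeq2 the coenzyme A breakdown list had 0 genes higher and 1 lower, and the cysteamine list 1 higher. *Upb1* was not called, which left 0 vanin relatives lower, with DESeq2, without a filter, or with the replicate block. *Lyz2*, the macrophage marker called lower (adjusted p = 0.0364 from edgeR), was not called in these 3 settings or with the filter in all 8 samples, which left 0 lower. That filter also left 0 neutrophil markers higher, since *Camp* was not tested.

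With single samples left out, genes higher were 0 to 1 for coenzyme A breakdown, 1 to 2 for cysteamine and taurine, and 1 to 2 for GPI anchors. Genes lower were 1 to 2 for coenzyme A breakdown, 0 to 1 for cysteamine and taurine, 0 to 1 for macrophage markers and 0 to 1 for vanin relatives. Calls were lost for *Nudt7* without IL-1β replicate 2 or vehicle replicate 1, 2 or 4, for *Enpp1* without IL-1β replicate 2 or 3 or vehicle replicate 3 or 4, and for *Cdo1* without IL-1β replicate 4 or vehicle replicate 2 or 3. They were lost for *Upb1* without any 1 sample other than IL-1β replicate 4 and vehicle replicate 4, and for *Lyz2* without any 1 sample other than IL-1β replicate 1 and vehicle replicates 2 and 4. The cause was not tested.

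The replicate numbers of the labels were not taken as pairs: deviations from the group means correlated at -0.0699 to 0.0416 between samples of the same number and at -0.085 to 0.0909 between others, and 1 of the 4 IL-1β samples correlated best with its own number. With the replicate block, the log2 fold changes were 8.70 for *Vnn3* and 3.52 for *Vnn1*, and 751 genes were DEGs.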
